A study of Cricetulus griseus with 24 samples.

Results

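The endoplasmic reticulum (ER) folds and checks secreted proteins, and 40 genes of that work were followed here in Chinese hamster ovary (CHO) cells that do or do not make an antibody. The genes encode ER chaperones, the sensors and transcription factors of the unfolded protein response, and the machinery of ER-associated degradation (ERAD). They were chosen by function as a list of gene symbols, and 40 of 40 were found among the 28037 genes of the count table. RNA-seq counts came from 3 lines, each sampled at exponential and at stationary phase. A0 is a clone of the DG44 line that secretes a humanized IgG. It received a plasmid with the IgG heavy chain gene together with a plasmid carrying the light chain and Neo, and was selected in G418. A1 descends from A0 through selection with methotrexate and makes more antibody. CHO-S, a CHO line that makes no antibody, has NDST in its sample titles, which the labels do not explain. A0 and A1 are 1 clone each, and CHO-S is not the host of either, so a difference from CHO-S cannot be told apart from a difference between lineages. There were 4 A0, 3 A1 and 3 CHO-S cultures at each phase, and whether the samples with the same number at both phases came from the same flask is not given in the labels.

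Newly made secretory proteins enter the ER unfolded and are bound by the Hsp70-type chaperone encoded by Hspa5, by Hsp90b1 and by the lectins calnexin and calreticulin, while disulfide isomerases pair their cysteines. When unfolded chains build up, the sensors Ern1 (IRE1), Eif2ak3 (PERK) and Atf6 start the unfolded protein response, which slows translation and raises transcription of chaperone and ERAD genes. ERAD recognizes chains that fail to fold, moves them through the membrane and hands them to the proteasome. In antibody-secreting cells, heavy chains are held in the ER by the Hspa5 product until light chains join them.

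Levels are given as CPM, the counts of a gene divided by the TMM-scaled size of the library and scaled to 1e6, and listed in the order of culture number. CPM are shares of each culture's RNA, so a change in a gene's RNA cannot be told apart from a change in the total RNA per cell. Reads had been aligned to the Chinese hamster genome C_griseus_v1.0 and counted per gene with a strand setting that is not stated, so reads of a gene and of one that overlaps it on the other strand may not be told apart. CPM are not corrected for transcript length and are compared between cultures, not between genes. The 8 exponential libraries of A0 carry 4 culture numbers and were summed per culture, which gave 23065838 to 26584337 counts per A0 exponential culture. The other cultures had 6532373 to 14652646 counts, except CHO-S stationary culture 1 with 1038026. That culture stood apart. Its log2 CPM had a mean correlation of 0.872 with those of the other CHO-S stationary cultures, which had means of 0.933 and 0.934, while every culture of the other groups had a mean of at least 0.9836. Reads on no annotated gene made up 32.8% of its library and 11.9 to 18.4% of the others. It is the first value in each CHO-S stationary series, and tests with CHO-S stationary cultures are given with all 3 and without it. The fits without it have fewer cultures and leave out the culture that stood apart. A smaller p-value in them therefore does not show a larger change. The second library of A0 exponential cultures 1 and 2 is marked RLT and that of cultures 3 and 4 is a duplicate. The RLT library of culture 1 differed from its partner by a chi-square of 29.0 per degree of freedom, against 6.38, 3.29 and 2.88 for cultures 2, 3 and 4. The A0 cultures also fell into these sets, 1 and 2 against 3 and 4, at both phases, though the stationary cultures have no second library. Residuals of an exponential and a stationary culture correlated at 0.173 to 0.403 within a set and at -0.366 to -0.139 between the sets. Changes printed here for single genes of A0 are also given with cultures 1 and 2 alone or 3 and 4 alone where the call changes there. These fits have fewer cultures, so a call lost in them does not show a smaller change.

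Each comparison was fitted over the genes that had a count in 2 or more of its cultures. Changes are log2 fold changes, given as value ± standard error. The quasi-likelihood F-test of edgeR gave the p-values, and these were adjusted by the Benjamini-Hochberg method over all genes tested. They measure the spread between these cultures, not between independently made clones. The words higher, lower, rose and fell are used of changes with an adjusted p-value under 0.05. Shares of all genes beside counts of members are over all genes tested and so include genes with few counts. The gene filter of edgeR drops such genes and gave larger shares. For A1 against A0 it gave 17.4% higher and 19.3% lower at exponential phase, and 23.1% and 24.1% at stationary phase. All 40 members passed the filter in every comparison. Derl3 did so with at most 15 counts in any culture (0 to 1.76 CPM), so its fitted changes rest on few counts and no fold change is given for it.

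Vim, a marker of fibroblast-like cells, was abundant, and markers of B-lineage cells were near 0. Vim was at 728 to 1465 CPM over the 20 cultures, with 1374, 1405, 1404 and 1465 CPM in the exponential and 877, 837, 752 and 728 CPM in the stationary A0 cultures. Actb, which most cell types express, was at 1312 to 4134 CPM. Of the B and plasma cell markers, Ptprc, Cd79a, Cd79b and Mzb1 had at most 4 counts in any culture, Irf4 had 0, Pou2af1 at most 13, and the most abundant, Jchain, had 1.67 to 4.91 CPM. The macrophage marker Adgre1 had 0 to 0.0931 CPM. Csf1r had 0.423, 0.999, 0.41 and 0.722 CPM in the exponential and 4.75, 4.54, 3.12 and 1.65 CPM in the stationary A0 cultures, and 0 to 1.49 CPM in A1 and CHO-S. Cd68 had 2.29 to 3.80 CPM in the exponential cultures of all lines, and at stationary phase 58.4, 65.3, 24.1 and 16.9 CPM in A0, 11.9, 8.26 and 9.49 CPM in A1 and 39.2, 29 and 29.9 CPM in CHO-S. The epithelial markers Epcam and Cdh1 had at most 3.54 and 1.23 CPM.

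At stationary phase the summed level of the module went up in every line, and furthest in A0. The summed level of the 40 members was 16918, 16351, 17041 and 17236 CPM in the exponential A0 cultures and 46862, 46852, 35309 and 33276 CPM in the stationary ones. In A1 it was 21583, 24311 and 21943 CPM at exponential and 27439, 28532 and 30260.0 CPM at stationary phase. CHO-S had 20904, 19598 and 19792 CPM and then 40463, 31208 and 27911 CPM. Every stationary culture lay above every exponential culture of its own line, and A0 went from the lowest of the lines at exponential phase to levels that only the low-depth CHO-S culture overlapped. That separation from CHO-S rested on Hspa5. Within A0 the stationary sums of cultures 1 and 2 lay above those of 3 and 4, as did the levels of Cd68 and Csf1r. Without Hspa5, the sums in A0 were 14451, 13930.0, 14623 and 14634 CPM at exponential and 27252, 27113, 22236 and 21875 CPM at stationary phase. The stationary sums without it were 20053, 20946 and 21689 CPM in A1 and 35037, 24887 and 22510.0 CPM in CHO-S, so each CHO-S culture lay within or above the range of A0 and A1 lay below it. Not every role went up in its mean sum. In A1 the lectin chaperones went from 3557.8 to 3501.3 CPM and the disulfide isomerases and oxidases from 4567.7 to 4349.2 CPM. In CHO-S the sensors and transcription factors went from 377.48 to 355.41 CPM and ERAD from 1426.5 to 1387.3 CPM. Both lower means in CHO-S rested on stationary culture 1, its lowest culture in both roles (250.79 and 1221.9 CPM). Stationary cultures 2 and 3 had 419.82 and 395.61 CPM for the sensors and transcription factors and 1488.9 and 1451.2 CPM for ERAD. These lay above every CHO-S exponential culture, which had at most 383.88 and 1444.8 CPM. The other roles went up in these lines, as did every role in A0.

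Counted by gene, 28 of 40 members rose in A0 between the phases, where 17.7% of the 20267 genes tested rose, and 3 fell, where 20.1% of all genes fell. The median change of the members was 0.54, beside 0.00 for all genes. With cultures 1 and 2 alone 30 members rose (19.6% of all genes tested in that fit), and with cultures 3 and 4 alone 23 (13.1%). In A1, 21 members rose (15.6% of all genes tested) and 4 fell (17.8%), with a median of 0.17 beside 0.03. With all 6 groups in 1 fit, 9 members rose in A1 (5.83% of all genes) and 1 fell (5.74%). The A1 calls lost in that fit were those of Hsp90b1, Hyou1, Dnajc3, Manf, Creld2, P4hb, Pdia5, Dnajc10, Ero1a, Fkbp2, Ppib, Atf6, Atf6b, Eif2ak3 and Edem3 (edgeR, adjusted p of 0.086 to 0.50). Of the 28 members that rose in A0 and the 21 that rose in A1, 19 were shared, where 9.78% of the genes tested in both lines rose in both. In CHO-S, 10 members rose (6.81% of all genes) and 0 fell by edgeR (6.48% of all genes; 1 fell at an unadjusted p under 0.05, and 1 by DESeq2), with a median of 0.38 beside 0.02. This count turned on single cultures. Without stationary culture 1, 26 members rose and 5 fell, where 23.1% and 24.7% of all genes tested in that fit did. With DESeq2 16 members passed the threshold, and with all 6 groups in 1 fit 20. The count was 4, 0 and 3 members past the threshold without exponential culture 1, 2 or 3 (14 at an unadjusted p under 0.05 in the fit by edgeR that gave 0), and 5 and 7 without stationary culture 2 or 3. In these 5 fits at most 2.06% of all genes rose and 1.30% fell. With all cultures, Ero1a, Ero1b, Herpud1, Hsp90b1, Hspa5, Manf and Pdia4, 7 members, rose in all 3 lines, where 2.20% of the genes tested in all 3 did. Without CHO-S stationary culture 1, 16 did so, where 5.67% of all genes did.

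The difference in response between A0 and A1 was tested as an interaction of line and phase. It was negative, a smaller rise or larger fall in A1, in 18 members, where 3.90% of the 20953 genes tested had a negative and 5.04% a positive interaction. Positive interactions numbered 0 among the members, both by edgeR, also at an unadjusted p under 0.05, and by DESeq2. The median was -0.41, beside 0.02 for all genes. With A0 cultures 1 and 2 alone the count was 30 (10.7% of all genes tested in that fit), with cultures 3 and 4 alone it was 18 (3.96%), and with all 6 groups in 1 fit 12 (1.78%). Against CHO-S, the interaction was positive in A0 for 8 members (3.78% of all genes) and negative for 3 (6.57%), and without CHO-S stationary culture 1 for 12 and 4 (8.43% and 8.75%). With A0 cultures 3 and 4 alone it was positive for 3 and negative for 2 (2.15% and 3.34%). For A1 against CHO-S it was negative for 5 members (3.77% of all genes) and positive for 0 by edgeR (3.83% of all genes; 1 at an unadjusted p under 0.05, and 0 by DESeq2). Without CHO-S stationary culture 1 it was negative for 15 and positive for 4, where 12.4% and 13% of all genes were. It passed the threshold in 3 members without any single exponential culture of either line, or without A1 stationary culture 1 or 2, all negative, where 1.92 to 2.62% of all genes were negative. The median of all genes for these interactions with CHO-S was -0.03 and 0.03 in edgeR and -0.15 and -0.11 in DESeq2.

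**Figure D1:**
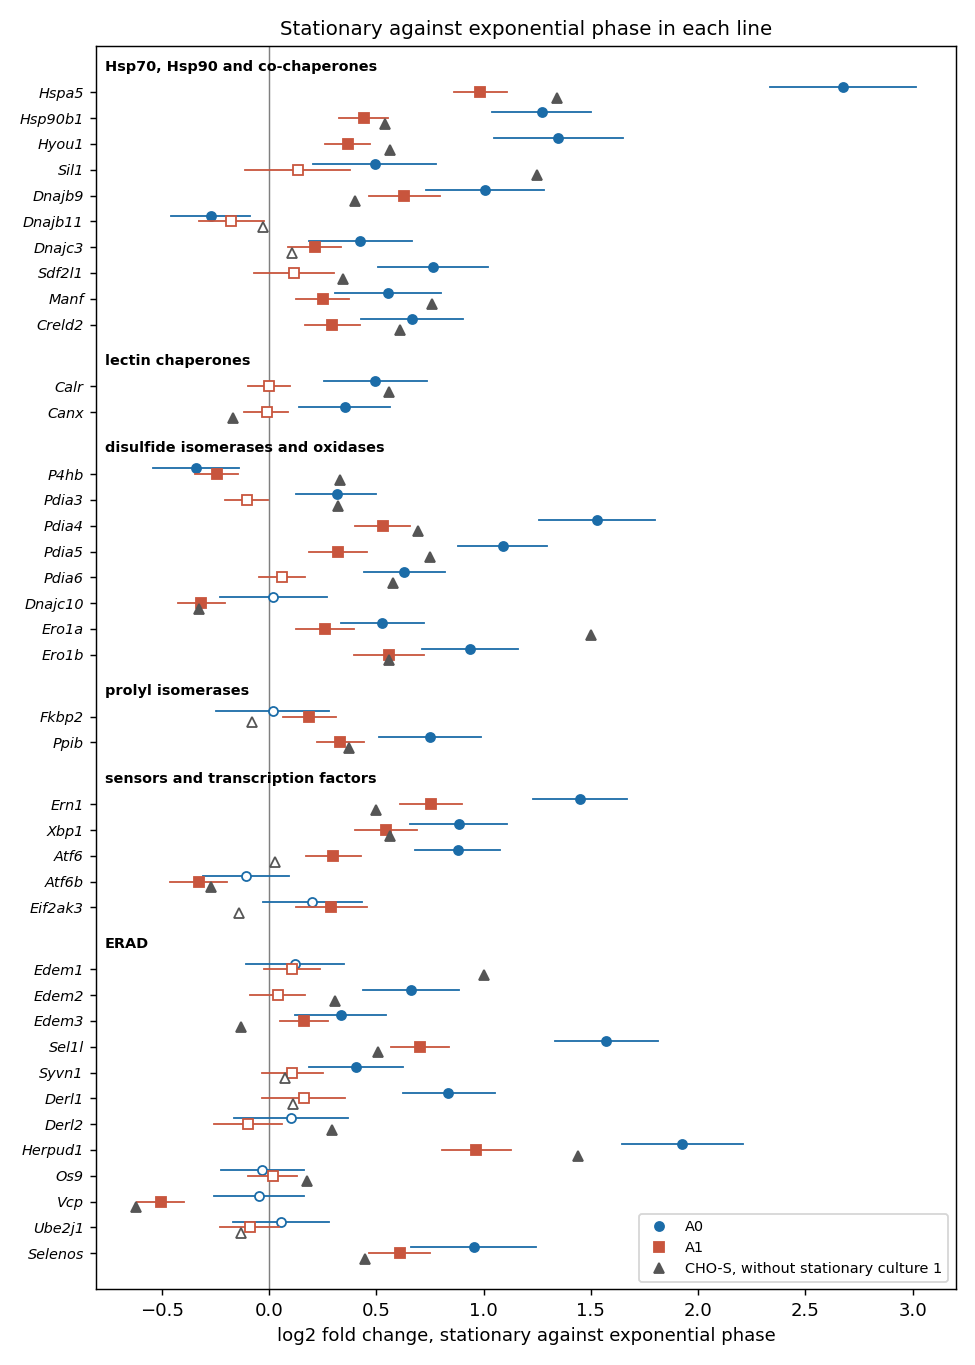
Log2 fold change of each member but Derl3 (rows, by role) from exponential to stationary phase in A0 (4 against 4 cultures), A1 (3 against 3) and CHO-S (3 exponential against stationary cultures 2 and 3). Lines are 95% intervals for A0 and A1, and filled symbols have an adjusted p-value under 0.05. Hspa5 (2.68) and Herpud1 (1.93) lie farthest to the right in A0, and Ero1a (1.50), Herpud1 (1.44) and Hspa5 (1.34) in CHO-S.

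Between the producers, more members were higher than lower in A1 at exponential phase, and more were lower than higher at stationary phase. At exponential phase 19 members were higher in A1 than in A0 and 3 were lower, where 12% and 13.8% of the 19946 genes tested were. At stationary phase 4 were higher in A1 and 18 lower, where 16% and 17.7% of 19293 genes were. The median of the members was 0.21 at exponential phase, beside -0.04 for all genes, and -0.21 at stationary phase, beside 0.00. Hspa5, Hyou1, Pdia6, Sel1l and Herpud1 were higher in A1 at exponential phase and lower at stationary phase, 5 of the 19 higher in the first and of the 18 lower in the second, where 0.476% of the genes tested at both phases changed sides in this way. Dnajc10, Vcp and Pdia3 were higher and Dnajc3, Dnajb11 and Ero1a lower in A1 at both phases (6.97% and 8.63% of these genes). Some of these calls were lost without a single culture (all values adjusted p from edgeR). At stationary phase this held for Pdia3 without A0 culture 3 or 4 or any A1 culture (0.061 to 0.17), for Dnajb11 without A0 culture 1 or A1 culture 1 (0.072 and 0.16), for Pdia6 without A1 culture 1 or 2 (0.055 and 0.066) and for Sel1l without A1 culture 3 (0.058). At exponential phase it held for Dnajb11 without A1 culture 1 or 3 (0.097 and 0.11), for Ero1a without A0 culture 3 or any A1 culture (0.070 to 0.18) and for Herpud1 without A1 culture 2 (0.11). Pdia3 at stationary phase also lost the call with A0 cultures 1 and 2 alone (0.14) and with no gene filter (0.052), and Dnajb11 with 3 and 4 alone (0.065). With A0 cultures 1 and 2 alone, 3 members were higher and 24 lower in A1 at stationary phase (20.2% and 21.6% of all genes), and with cultures 3 and 4 alone 9 and 18 (18.2% and 19.1%). With all 6 groups in 1 fit, 1 was higher and 13 were lower at stationary phase (11.9% and 12.2%). The calls lost there were those of Dnajb11, Canx, Pdia3, Eif2ak3, Edem3, Sel1l, Os9 and Vcp (0.077 to 0.35), and at exponential phase those of Dnajb11, Calr, Ero1a and Syvn1 (0.050 to 0.22).

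**Figure D2:**
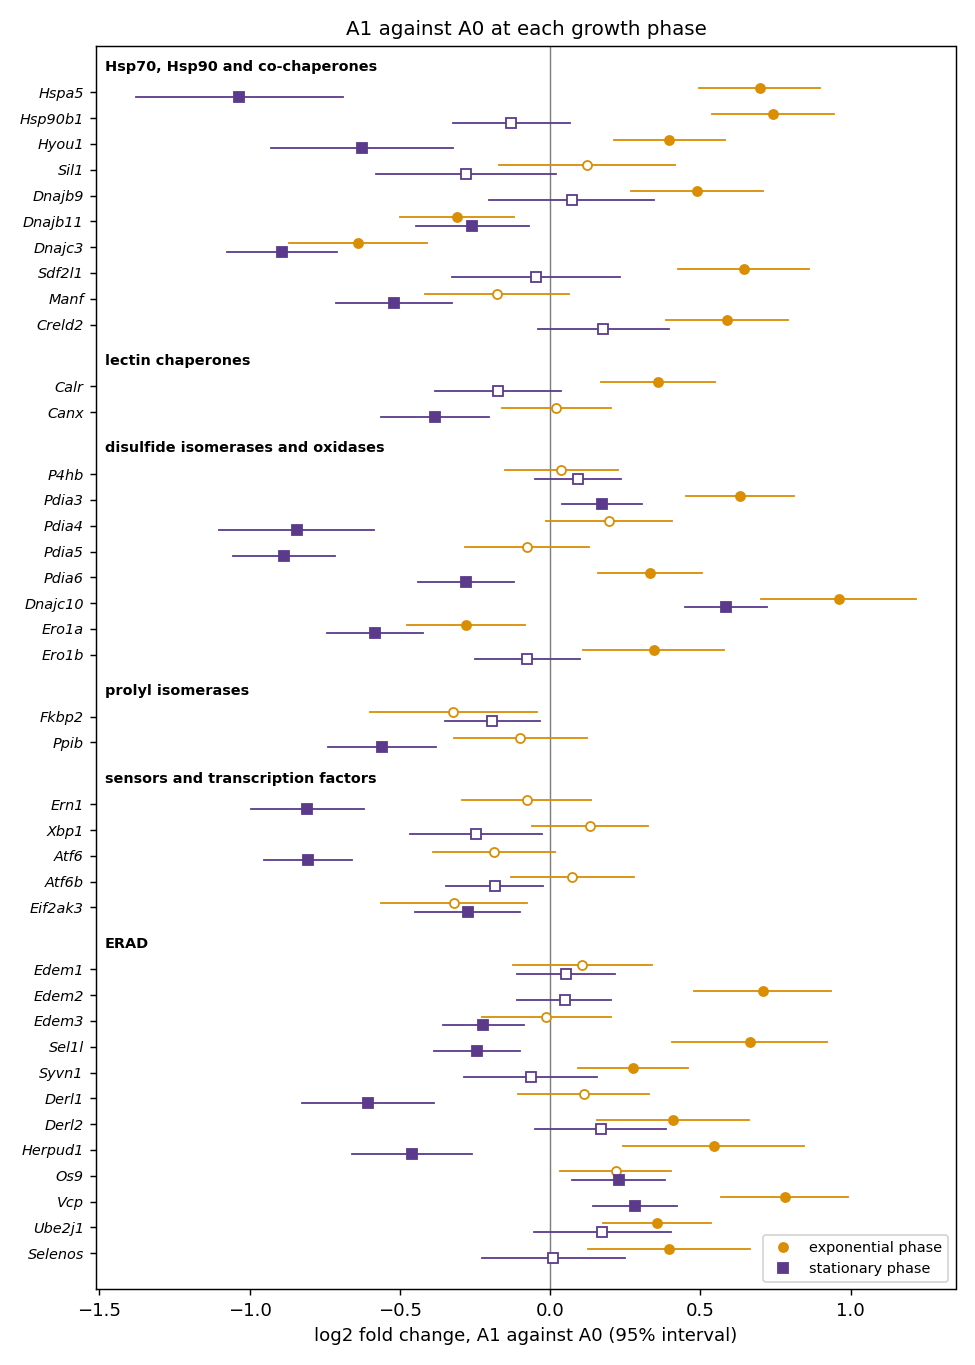
Log2 fold change of A1 (3 cultures) against A0 (4 cultures) for each member but Derl3 at exponential and at stationary phase, with 95% intervals. Filled symbols have an adjusted p-value under 0.05. Hspa5 lies at 0.70 at exponential and at -1.03 at stationary phase, while Dnajc10 is on the right (0.96 and 0.58) at both.

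CHO-S gave a level without antibody production, and its cultures are shared by the comparisons of A0 and of A1 with it. At exponential phase 13 members were higher and 11 lower in A0 (27.6% and 21.9% of all genes tested), and their median, 0.08, was below that of all genes, 0.14. In A1, 25 were higher and 10 lower (30.0% and 27.1%), with a median of 0.34 beside 0.05. With the gene filter of edgeR the shares of all genes at this phase were 34.1% and 31.1% for A0 and 37.5% and 36.7% for A1. At stationary phase A0 had 18 higher and 8 lower members (20.7% and 19.3% of all genes), with a median of 0.39 beside 0.08, and 23 and 10 without CHO-S stationary culture 1 (28.0% and 23.8% of all genes in that fit). With A0 cultures 1 and 2 alone 13 were higher and 4 lower (16.4% and 13.8%), and with cultures 3 and 4 alone 8 and 3 (15.6% and 14.1%). A1 had 10 higher and 8 lower members at stationary phase (18.2% and 16.6% of all genes), with a median of 0.15 beside 0.06, and 18 and 15 without CHO-S stationary culture 1 (29.9% and 27.5% of all genes in that fit). That comparison had 8, 7 and 9 members past the threshold without A1 culture 1, 2 or 3, and 11 without CHO-S culture 2 or 3, fits in which 11.1 to 13% of all genes were higher and 10.9 to 12.9% lower.

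Hspa5 (gene 100689305), the ER chaperone that also holds the sensors inactive, changed most between the phases in A0 and set the producers apart at both. At exponential phase it was at 2468, 2422, 2418 and 2602 CPM in A0, 3749, 4570.5 and 3745 CPM in A1 and 2424, 2251 and 2278 CPM in CHO-S. The stationary cultures had 19611, 19739, 13073 and 11402 CPM in A0, 7385, 7587 and 8571 CPM in A1 and 5426, 6321 and 5401 CPM in CHO-S. At exponential phase A1 lay above both other lines, which overlapped, whereas at stationary phase every A0 culture lay above every A1 culture and every A1 culture above every CHO-S culture. A0 cultures 1 and 2 were the highest of all. The rise between phases was 2.68 ± 0.16 (edgeR, adjusted p = 6.8e-09) in A0, 0.98 ± 0.06 (edgeR, adjusted p = 8.5e-14) in A1 and 1.31 ± 0.10 (edgeR, adjusted p = 0.0023) in CHO-S. In CHO-S it was 1.34 without stationary culture 1, and the call was lost without exponential culture 2 (edgeR, adjusted p = 0.051). A1 against A0 gave 0.70 ± 0.09 (edgeR, adjusted p = 8.7e-05) at exponential and -1.03 ± 0.16 (edgeR, adjusted p = 0.00020) at stationary phase, and the interaction was -1.73 ± 0.20 (edgeR, adjusted p = 1.3e-05). With A0 cultures 1 and 2 alone the stationary value was -1.34 and with 3 and 4 alone -0.65, both past the threshold, and the interaction was -2.05 and -1.32. The A0 rise exceeded that of CHO-S by 1.36 ± 0.23 (edgeR, adjusted p = 0.00050), and by 1.38 without CHO-S stationary culture 1. A1 against CHO-S was 0.44 at stationary phase (edgeR, adjusted p = 0.022), a call lost without any single A1 culture or without CHO-S culture 2 or 3 (edgeR, adjusted p of 0.055 to 0.19) or with the gene filter of edgeR (0.067) and kept without CHO-S culture 1 (0.40).

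**Figure D3:**
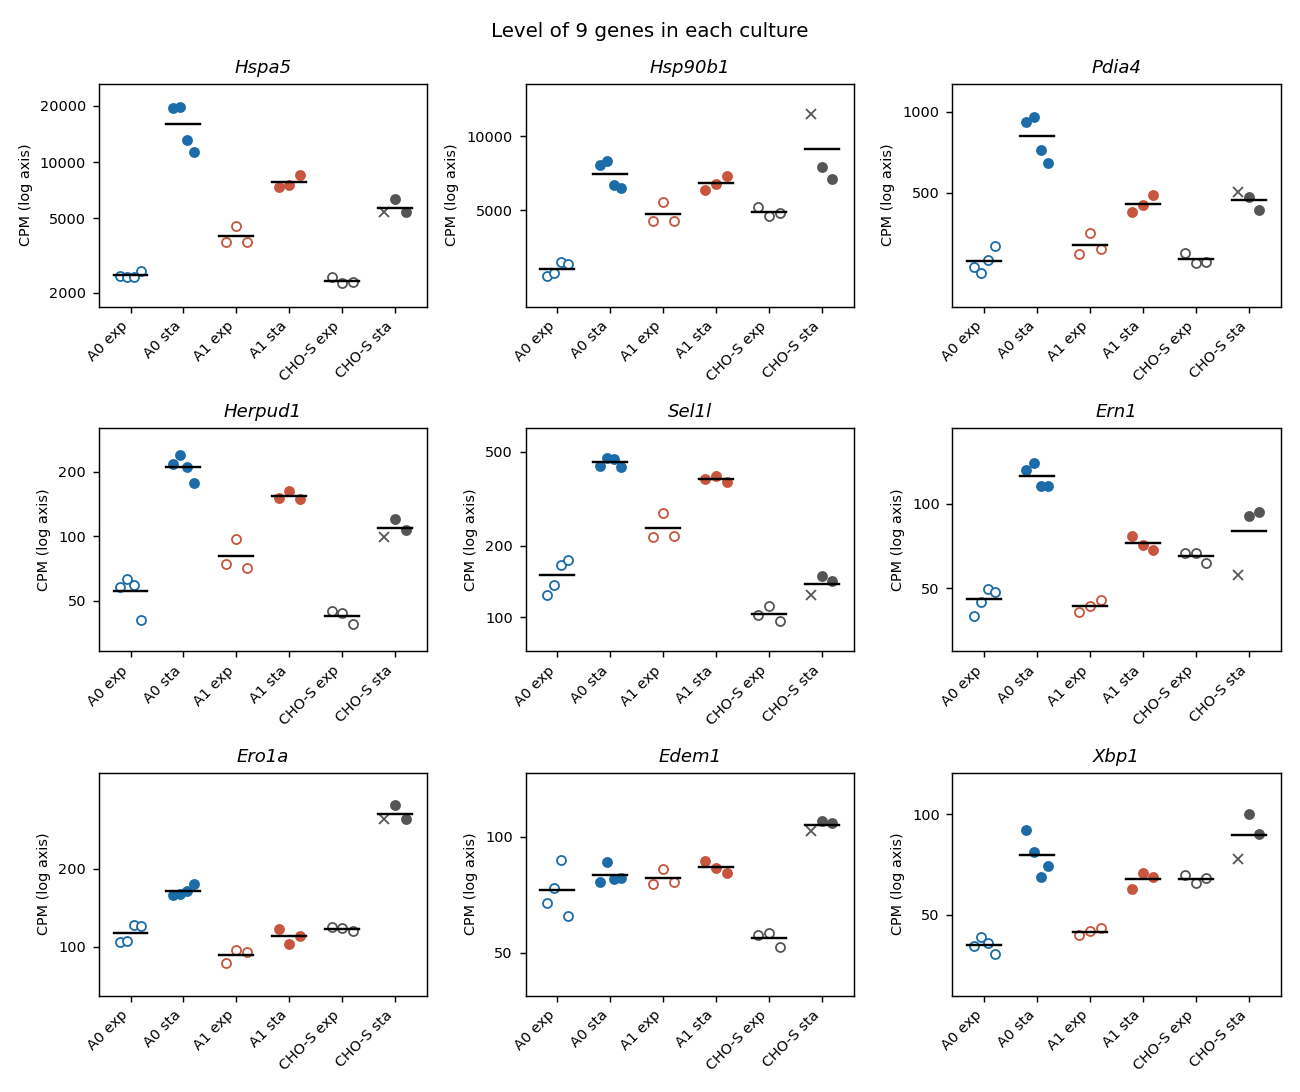
Level of 9 members in every culture, in CPM on a log axis. Open circles are exponential (exp) and filled circles stationary (sta) cultures, the cross is CHO-S stationary culture 1, and bars are group means. The A0 stationary cultures are the highest for Hspa5, Herpud1, Sel1l and Ern1, and the CHO-S stationary cultures for Ero1a and Edem1.

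Hsp90b1 (gene 100773331), an Hsp90-type chaperone that folds a narrower set of clients, was low in A0 before stationary phase. It was at 2688, 2759, 3066 and 2996 CPM in A0, 4526, 5409 and 4498 CPM in A1 and 5143, 4707 and 4871 CPM in CHO-S at exponential phase. At stationary phase the cultures had 7603, 7896, 6329.6 and 6147 CPM in A0, 6043, 6389 and 6889 CPM in A1 and 12322, 7503 and 6711 CPM in CHO-S. All A0 exponential cultures lay below those of the other lines, and at stationary phase the lines overlapped apart from CHO-S culture 1, which was the highest. A1 was higher than A0 at exponential phase by 0.74 ± 0.10 (edgeR, adjusted p = 5.6e-05), and A0 was lower than CHO-S, at -0.76 ± 0.08 (edgeR, adjusted p = 3.1e-06). Its rise between phases was 1.27 ± 0.11 (edgeR, adjusted p = 2.3e-07) in A0 and 0.44 ± 0.06 (edgeR, adjusted p = 2.7e-07) in A1, with an interaction of -0.87 ± 0.14 (edgeR, adjusted p = 0.00045). CHO-S had 0.86 (edgeR, adjusted p = 0.045) with all cultures, a call lost without any single culture other than stationary culture 1 (edgeR, adjusted p of 0.068 to 0.20) or with the gene filter of edgeR (0.056), and 0.54 (edgeR, adjusted p = 1.4e-23) without stationary culture 1. At stationary phase A1 against A0 was -0.13 (edgeR, adjusted p = 0.30), with -0.28 (edgeR, adjusted p = 0.00048) for A0 cultures 1 and 2 alone and 0.04 (edgeR, adjusted p = 0.64) for 3 and 4 alone. Hyou1, which renews the nucleotide of the Hspa5 product, rose by 1.35 ± 0.14 (edgeR, adjusted p = 1.9e-06) in A0 and 0.37 in A1, and its interaction was -1.02 ± 0.18 (edgeR, adjusted p = 0.00085). It was higher in A1 at exponential phase (0.40) and lower at stationary phase (-0.63, with -0.91 and -0.28 for the A0 cultures 1 and 2 and 3 and 4).

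Dnajb9, Dnajb11 and Dnajc3 encode J-domain proteins that bring clients to the Hspa5 product, and they did not move as a unit. Dnajb9 (gene 100763648) was at 20.4, 19.3, 22.9 and 19.7 CPM in A0, 27.6, 28.8 and 30.3 CPM in A1 and 20.7, 18.7 and 18.4 CPM in CHO-S at exponential phase. At stationary phase it was at 45.9, 50.9, 33.3 and 36.9 CPM in A0, 42.7, 43.6 and 46 CPM in A1 and 63, 25.2 and 25.7 CPM in CHO-S. A1 stood above the others at exponential phase, and the CHO-S stationary cultures split, with culture 1 the highest of all cultures and the others below every A0 and A1 stationary culture. Dnajb9 was higher in A1 at exponential phase by 0.49 ± 0.10 (edgeR, adjusted p = 0.0027), and rose by 1.01 ± 0.13 (edgeR, adjusted p = 1.5e-05) in A0 and 0.63 in A1. The CHO-S change was 0.71 (edgeR, adjusted p = 0.17) with all cultures and 0.40 (edgeR, adjusted p = 0.00021) without stationary culture 1, and A0 and A1 against CHO-S at stationary phase had 0.29 and 0.37 (not past the threshold) with culture 1 and 0.73 and 0.77 (past it) without. Dnajb11 (gene 100765455) was at 169, 163, 171 and 154 CPM in A0 and 128, 146 and 125 CPM in A1 at exponential phase, and at 146, 134, 130.3 and 138 CPM in A0 at stationary phase. Every culture of the A1 exponential and the A0 stationary group lay below every A0 exponential culture. It was lower in A1 than in A0, at -0.31 ± 0.09 (edgeR, adjusted p = 0.017), a call lost without A1 culture 1 or 3 (edgeR, adjusted p of 0.097 and 0.11) and with all 6 groups in 1 fit (0.16), and in A0 it changed by -0.27 ± 0.09 (edgeR, adjusted p = 0.020), a call lost without stationary culture 2 or 3 (edgeR, adjusted p of 0.056 and 0.069), with cultures 3 and 4 alone (0.077) and in the fit of 6 groups (0.15). Dnajc3 (gene 100766172) was at 224, 215, 253 and 291 CPM in A0 and 156, 169 and 149 CPM in A1 at exponential phase. The stationary cultures had 388, 327, 300.5 and 314 CPM in A0 and 172, 188 and 180.3 CPM in A1. A1 lay below A0 at both phases, with differences of -0.64 ± 0.11 (edgeR, adjusted p = 0.00050) and -0.89 ± 0.09 (edgeR, adjusted p = 3.0e-06).

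Among the other partners of the Hspa5 product, Sdf2l1 and Creld2 were higher in A1 at exponential phase. Sdf2l1 (gene 100775047), a stress-induced subunit of the complex with Dnajb11, was at 23.4, 21.5, 19.9 and 24.3 CPM in A0, 34.5, 35.4 and 34.7 CPM in A1 and 23.1, 21.6 and 21.6 CPM in CHO-S at exponential phase. The stationary cultures had 44.7, 41.4, 35.2 and 31.5 CPM in A0, 33.6, 34 and 43.5 CPM in A1 and 15.5, 28.8 and 26.8 CPM in CHO-S. A1 lay above both other lines at exponential phase and stayed near that level, while A0 came up to it. The values were 0.64 ± 0.10 (edgeR, adjusted p = 0.00032) for A1 against A0 at exponential phase, 0.76 ± 0.12 (edgeR, adjusted p = 0.00010) for the rise in A0 and 0.12 (edgeR, adjusted p = 0.37) for A1. The interaction was -0.69 ± 0.17 (edgeR, adjusted p = 0.012), lost without A1 stationary culture 2 (edgeR, adjusted p = 0.056) and with A0 cultures 3 and 4 alone, where it was -0.50 (edgeR, adjusted p = 0.079). A0 against CHO-S at stationary phase was 0.57 (edgeR, adjusted p = 0.048), a call lost without A0 culture 1, 2 or 3 or CHO-S culture 3 (edgeR, adjusted p of 0.069 to 0.12) and 0.47 without CHO-S culture 1. With A0 cultures 1 and 2 alone it was 0.78 (edgeR, adjusted p = 0.057), and with 3 and 4 alone 0.38 (edgeR, adjusted p = 0.30).

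Creld2 (gene 100689097), an ER protein induced by stress, was at 88.1, 84.7, 78.3 and 98.7 CPM in A0, 126, 139 and 129.8 CPM in A1 and 99.4, 91.4 and 88 CPM in CHO-S at exponential phase. At stationary phase A0 had 165, 148, 122 and 124 CPM, A1 145, 169.5 and 162 CPM and CHO-S 87.7, 146 and 136 CPM. A1 stood above the other lines at exponential phase and overlapped A0 at stationary phase. A1 exceeded A0 by 0.59 ± 0.10 (edgeR, adjusted p = 0.00036) at exponential phase, and the stationary value was 0.18 (edgeR, adjusted p = 0.20), with 0.37 (edgeR, adjusted p = 0.00065) for A0 cultures 3 and 4 alone and 0.26 (edgeR, adjusted p = 0.041) without A0 culture 1. Its rise was 0.67 in A0 and 0.29 in A1, and CHO-S had 0.43 (edgeR, adjusted p = 0.18) with all cultures and 0.61 (edgeR, adjusted p = 1.0e-17) without stationary culture 1. Manf (gene 100768617), a small ER protein that binds the Hspa5 product and can be secreted, was highest in the stationary A0 cultures. It was at 429, 352, 327 and 299 CPM in A0, 311, 303 and 321 CPM in A1 and 219.5, 209.9 and 208 CPM in CHO-S at exponential phase, and at 574, 556, 492 and 460.4 CPM in A0, 327, 377 and 392 CPM in A1 and 432, 372 and 344 CPM in CHO-S at stationary phase. Every A0 and A1 culture lay above every CHO-S culture at exponential phase, and A1 and CHO-S overlapped at stationary phase. A0 was higher than CHO-S at exponential phase by 0.74 ± 0.11 (edgeR, adjusted p = 7.1e-05), and A1 was lower than A0 at stationary phase, at -0.52 ± 0.09 (edgeR, adjusted p = 0.00046). A0 was also higher than CHO-S at stationary phase, with means of 520.53 and 382.83 CPM. That call was lost without any single culture other than CHO-S culture 1 (edgeR, adjusted p up to 0.17). It was also lost with A0 cultures 1 and 2 alone or 3 and 4 alone (edgeR, adjusted p up to 0.27). The alternatives gave values of 0.284 to 0.562. Manf rose by 0.55 in A0, 0.25 in A1 and 0.85 in CHO-S (edgeR, adjusted p = 0.0090; lost without any single exponential culture or stationary culture 2, at 0.053 to 0.084; 0.76 without stationary culture 1).

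Sil1 (gene 100751151), another exchange factor of the Hspa5 product, was more abundant in CHO-S than in either producer. At exponential phase it was at 15.5, 16.7, 13.8 and 11.7 CPM in A0, 15.5, 14.6 and 17.1 CPM in A1 and 26.2, 27.3 and 27.5 CPM in CHO-S. The stationary cultures had 23.6, 20.7, 17.1 and 20.7 CPM in A0, 13.9, 16.5 and 20 CPM in A1 and 88.8, 70.1 and 55.5 CPM in CHO-S. CHO-S lay above both producers at each phase, and its stationary cultures lay furthest above. Against CHO-S, A0 was lower, at -0.89 ± 0.12 (edgeR, adjusted p = 2.6e-05) at exponential and -1.78 ± 0.19 (edgeR, adjusted p = 4.6e-05) at stationary phase (-1.61 without CHO-S culture 1), as was A1, at -0.78 ± 0.09 (edgeR, adjusted p = 4.2e-08) and -2.06 ± 0.23 (edgeR, adjusted p = 0.00029) (-1.92 without that culture). The rise in CHO-S was 1.37 ± 0.19 (edgeR, adjusted p = 0.0055), 1.25 without stationary culture 1, and the call was lost without any single exponential culture (edgeR, adjusted p of 0.053 to 0.060). The interaction with phase was -0.87 for A0 and -1.19 for A1 against CHO-S (edgeR, adjusted p = 0.014 and 0.0038), the first -0.78 (edgeR, adjusted p = 0.11) with A0 cultures 3 and 4 alone. Without CHO-S stationary culture 1 they were -0.69 and -1.12.

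The lectin chaperones retain glycoproteins during folding. Calr (gene 100689096), which encodes calreticulin, was at 2945, 2852, 2274 and 2201 CPM in A0, 2207, 2262 and 2405 CPM in A1 and 8951, 3790.5 and 3416 CPM in CHO-S at stationary phase. CHO-S lay above both producers, and its culture 1 was far above the rest. A0 against CHO-S was -1.08 ± 0.30 (edgeR, adjusted p = 0.016) with all cultures and -0.47 without CHO-S culture 1, and A1 against CHO-S -1.26 ± 0.34 (edgeR, adjusted p = 0.022) and -0.68. The A1 call was lost without any single A1 culture (edgeR, adjusted p of 0.075 to 0.10). With A0 cultures 1 and 2 alone or 3 and 4 alone, A0 against CHO-S was -0.90 (edgeR, adjusted p = 0.17) and -1.30 (edgeR, adjusted p = 0.088). Between the phases Calr rose by 0.49 in A0, and the interaction with A1 was -0.54 (edgeR, adjusted p = 0.018; 0.053 to 0.077 without A1 exponential culture 2 or stationary culture 1 or 2, and 0.35 in the fit of 6 groups). Canx, for calnexin, rose by 0.35 in A0 and was lower in A1 than in A0 at stationary phase (-0.38; edgeR, adjusted p = 0.0025). The rise was 0.53 with A0 cultures 1 and 2 alone and 0.18 (edgeR, adjusted p = 0.18) with 3 and 4 alone, and both calls were lost in the fit of 6 groups (0.067 and 0.11).

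Disulfide isomerases and the oxidases that recharge them form new bonds and correct wrong ones. Dnajc10 (gene 100689230), an ER reductase with a J-domain that serves ERAD, was at 205, 215, 213 and 303 CPM in A0 and 434, 463 and 471 CPM in A1 at exponential phase, and at 237, 228, 246 and 245 and 371, 357 and 356 CPM at stationary phase. A1 lay above A0 at both phases, and A0 exponential culture 4 was higher than the rest of its group. The differences were 0.96 ± 0.12 (edgeR, adjusted p = 4.8e-05) and 0.58 ± 0.06 (edgeR, adjusted p = 9.0e-06), and Dnajc10 fell in A1 between the phases, at -0.32 ± 0.05 (edgeR, adjusted p = 1.6e-05), a call lost in the fit of 6 groups (edgeR, adjusted p = 0.14). Pdia3 (gene 100689343), the isomerase that works with the lectins, was at 756, 793, 811 and 836 CPM in A0 and 1484, 1381 and 1398 CPM in CHO-S at exponential phase, and at 1042, 1029, 959 and 975 and 2914, 1853 and 1687 CPM at stationary phase. A0 lay below CHO-S at each phase. The differences were -0.82 ± 0.08 (edgeR, adjusted p = 8.3e-07) and -1.12 ± 0.19 (edgeR, adjusted p = 0.00088), the second -0.81 without CHO-S culture 1.

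Pdia5 (gene 100766255), a less studied isomerase, was at 154, 148, 136 and 132 CPM in A0 and 74.5, 77.1 and 81.6 CPM in A1 at stationary phase. The A0 cultures were all above those of A1, with a difference of -0.89 ± 0.08 (edgeR, adjusted p = 1.6e-06), while at exponential phase it was -0.08 (edgeR, adjusted p = 0.60). Pdia4, an isomerase with an extra active site, rose by 1.53 ± 0.13 (edgeR, adjusted p = 1.8e-07) in A0 and 0.53 in A1, and its interaction was -1.04 ± 0.17 (edgeR, adjusted p = 0.00035), with -1.35 and -0.69 for A0 cultures 1 and 2 and 3 and 4. Pdia6 rose by 0.63 in A0, and its change in A1 was 0.06 (edgeR, adjusted p = 0.42). P4hb (gene 100689433), the classical isomerase, was at 1454, 1333, 1239.7 and 1399 CPM in exponential and 1179, 1019.8, 1032 and 1094 CPM in stationary A0 cultures. It was thus lower in all stationary cultures, at -0.34 ± 0.10 (edgeR, adjusted p = 0.0091), with -0.31 (edgeR, adjusted p = 0.066) for cultures 3 and 4 alone. In A1 it fell as well (-0.24; edgeR, adjusted p = 0.23 in the fit of 6 groups), whereas in CHO-S it was 0.14, not past the threshold, with all cultures and rose by 0.33 without stationary culture 1.

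Ero1a (gene 100763138) encodes the oxidase that supplies disulfides to the isomerases. At exponential phase it was at 104, 106, 121 and 120.3 CPM in A0, 86.7, 97.2 and 95.2 CPM in A1 and 119, 118 and 115 CPM in CHO-S. The stationary cultures had 158, 159, 164 and 174 CPM in A0, 118, 103 and 111 CPM in A1 and 311, 350.4 and 310.0 CPM in CHO-S. The stationary CHO-S cultures, including culture 1, were above every other culture, and A1 was the lowest line at each phase. Ero1a rose by 1.47 ± 0.12 (edgeR, adjusted p = 0.0029) in CHO-S (1.50 without stationary culture 1; edgeR, adjusted p = 0.051 without exponential culture 2), 0.53 ± 0.09 (edgeR, adjusted p = 0.00024) in A0 and 0.26 ± 0.07 (edgeR, adjusted p = 0.0021) in A1, the last lost in the fit of 6 groups (0.15). The interaction against CHO-S was -0.95 ± 0.16 (edgeR, adjusted p = 0.00074) for A0 and -1.21 ± 0.14 (edgeR, adjusted p = 0.00026) for A1 (-0.92 and -1.26 without CHO-S stationary culture 1). A1 was lower than CHO-S at stationary phase, at -1.57 ± 0.14 (edgeR, adjusted p = 0.00011) (-1.61 without CHO-S culture 1). Against A0 it was lower, at -0.58 ± 0.07 (edgeR, adjusted p = 4.1e-05) at stationary phase and -0.28 ± 0.09 (edgeR, adjusted p = 0.036) at exponential phase, the latter lost without A0 culture 3 or any single A1 culture (edgeR, adjusted p of 0.070 to 0.18), with A0 cultures 1 and 2 alone, at -0.18 (edgeR, adjusted p = 0.050), and in the fit of 6 groups (0.050). Ero1b, its close relative, rose in all 3 lines, by 0.94, 0.56 and 0.58. The CHO-S call was lost without any single culture other than stationary culture 1 (edgeR, adjusted p of 0.093 to 0.16), and the value was 0.56 without that culture.

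Prolyl isomerases turn proline bonds in folding chains. Fkbp2 (gene 100757160) was at 221, 202, 213 and 139 CPM in A0 and 88.4, 81.5 and 83.5 CPM in CHO-S at exponential phase, and at 160.0, 176 and 186 CPM in A1 and 73.3, 79.5 and 79.9 CPM in CHO-S at stationary phase. Both producers lay above CHO-S, A0 by 1.21 ± 0.14 (edgeR, adjusted p = 4.0e-06) and A1 by 1.14 ± 0.15 (edgeR, adjusted p = 0.00064) (1.10 without CHO-S culture 1). Ppib, a cyclophilin that acts on antibody chains and collagen, rose by 0.75 in A0 and 0.33 in A1, and was lower in A1 than in A0 at stationary phase (-0.56; edgeR, adjusted p = 0.00014).

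Of the sensors, Ern1 (gene 100750680), the kinase and nuclease that splices Xbp1 mRNA, rose most between the phases in A0. It was at 39.8, 44.7, 49.6 and 48.5 CPM in A0, 41.1, 43.3 and 45.4 CPM in A1 and 67, 66.8 and 61.4 CPM in CHO-S at exponential phase. At stationary phase it was at 131, 139, 116 and 116 CPM in A0, 76.9, 71.6 and 68.7 CPM in A1 and 55.7, 90.3 and 93.6 CPM in CHO-S. CHO-S was the highest line at exponential phase and A0 at stationary phase, and neither overlapped the others there. Its rise was 1.45 ± 0.10 (edgeR, adjusted p = 3.5e-08) in A0 and 0.76 ± 0.07 (edgeR, adjusted p = 5.9e-10) in A1, and the CHO-S change was 0.33 (edgeR, adjusted p = 0.31) with all cultures and 0.50 (edgeR, adjusted p = 4.2e-12) without stationary culture 1. A1 against CHO-S at exponential phase was -0.59 ± 0.06 (edgeR, adjusted p = 1.8e-08), and the interaction of A1 against A0 was -0.73 ± 0.14 (edgeR, adjusted p = 0.0015). Xbp1 (gene 100689062), the factor that drives chaperone and ERAD genes once spliced, was at 40.1, 42.9, 41 and 38.1 CPM in A0, 43.4, 44.6 and 45.4 CPM in A1 and 65.6, 62.3 and 64.5 CPM in CHO-S at exponential phase. The stationary cultures had 89.8, 77.1, 65 and 69.8 CPM in A0, 59.7, 66.8 and 65 CPM in A1 and 73.3, 100.1 and 87.1 CPM in CHO-S. CHO-S lay above both producers at exponential phase, and A0 and CHO-S overlapped at stationary phase. Gene counts do not separate spliced from unspliced Xbp1 mRNA. The total rose by 0.88 ± 0.11 (edgeR, adjusted p = 7.7e-06) in A0 and 0.55 ± 0.07 (edgeR, adjusted p = 2.6e-07) in A1, and the CHO-S change was 0.46 (edgeR, adjusted p = 0.084) with all cultures (0.0048 in DESeq2, 0.036 with the gene filter of edgeR and 0.0063 in the fit of 6 groups) and 0.56 (edgeR, adjusted p = 4.3e-14) without stationary culture 1. A1 was lower than CHO-S, at -0.54 ± 0.06 (edgeR, adjusted p = 3.4e-08) at exponential phase, and at stationary phase it was -0.48 (edgeR, adjusted p = 0.049), a call lost without any single A1 culture or CHO-S culture 2 or 3 (edgeR, adjusted p of 0.10 to 0.19) or with no gene filter (0.059) and -0.58 without CHO-S culture 1. A1 against A0 at stationary phase was -0.25 (edgeR, adjusted p = 0.078), with -0.40 (edgeR, adjusted p = 0.00020) for A0 cultures 1 and 2 alone, and -0.31 (edgeR, adjusted p = 0.026) and -0.28 (adjusted p = 0.050) without A0 culture 3 or 4. Of 15 alternatives for this value, 11 left it short of the threshold.

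Atf6 (gene 100772173), which is cut in the Golgi to release a transcription factor, was at 224, 228, 227 and 218 CPM in A0 and 76.4, 83.9 and 84.9 CPM in CHO-S at stationary phase. The A0 cultures were close together and all above CHO-S, by 1.43 ± 0.14 (edgeR, adjusted p = 2.3e-05) (1.43 without CHO-S culture 1). A1 was lower than A0 at that phase, at -0.81 ± 0.07 (edgeR, adjusted p = 1.1e-06). Its relative Atf6b (gene 100767112) was at 110.4, 100.03 and 115 CPM in exponential and 86.3, 83.1 and 86.8 CPM in stationary A1 cultures, lower in all of the latter, with a change of -0.33 ± 0.07 (edgeR, adjusted p = 0.00016), a call lost in the fit of 6 groups (edgeR, adjusted p = 0.41). CHO-S stationary culture 1 had 20.6 CPM of Atf6b, against 124 and 108 in the other stationary cultures. Eif2ak3 (gene 100765343), the kinase that slows translation, was at 33.1, 36.8, 45.9 and 41.7 CPM in A0 and 24.3, 26.3 and 22.2 CPM in CHO-S at exponential phase, with every A0 culture above CHO-S and a difference of 0.71 ± 0.12 (edgeR, adjusted p = 0.00018). It rose in A1 (0.29; edgeR, adjusted p = 0.15 in the fit of 6 groups), and A0 had 0.20 (edgeR, adjusted p = 0.17), with 0.34 (edgeR, adjusted p = 0.019) for cultures 1 and 2 alone.

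Of the 13 ERAD members, 8 were higher and 0 lower in A1 than in A0 at exponential phase by edgeR, where 12% and 13.8% of all genes were (0 lower at an unadjusted p under 0.05, and 0 by DESeq2). At stationary phase 2 were higher and 4 lower (16% and 17.7% of all genes). In A0, 7 rose between the phases and 1, Derl3 with its few counts, fell (17.7% and 20.1%), a call lost without any single culture other than stationary culture 4 (edgeR, adjusted p of 0.050 to 0.13), with cultures 3 and 4 alone (0.39), with the first A0 libraries alone (0.14), with the size factors of DESeq2 (0.050) and in DESeq2 (0.078). Herpud1 (gene 100758367), a membrane protein that assembles the ERAD complex, was at 57.9, 63.2, 59.1 and 40.5 CPM in A0, 74.3, 96.7 and 70.7 CPM in A1 and 44.6, 43.6 and 38.7 CPM in CHO-S at exponential phase. The stationary cultures had 217, 240.1, 211 and 178 CPM in A0, 151, 163 and 150.0 CPM in A1 and 99.1, 119.8 and 107 CPM in CHO-S. A1 was highest at exponential phase and A0 at stationary phase, where no lines overlapped. Its rise was 1.93 ± 0.13 (edgeR, adjusted p = 2.8e-08) in A0, 0.97 ± 0.08 (edgeR, adjusted p = 3.1e-11) in A1 and 1.37 ± 0.14 (edgeR, adjusted p = 0.0030) in CHO-S, the last 1.44 without stationary culture 1 and lost without exponential culture 2 (edgeR, adjusted p = 0.051). A1 against A0 was 0.54 ± 0.14 (edgeR, adjusted p = 0.010) at exponential phase, lost without A1 culture 2 (0.39, edgeR, adjusted p = 0.11), and -0.46 ± 0.09 (edgeR, adjusted p = 0.0015) at stationary phase, and the interaction was -1.002 ± 0.18 (edgeR, adjusted p = 0.0012), with -0.98 and -1.02 for A0 cultures 1 and 2 and 3 and 4.

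Sel1l (gene 100751353), the adaptor that feeds clients to the ubiquitin ligase Syvn1, marked the producers off from CHO-S. It was at 124, 136, 166 and 174 CPM in A0, 219, 275 and 221 CPM in A1 and 102, 111 and 96.1 CPM in CHO-S at exponential phase. At stationary phase it was at 436, 471, 463 and 429.6 CPM in A0, 382, 396 and 371 CPM in A1 and 124, 149 and 142 CPM in CHO-S. No lines overlapped at either phase, and A0 and A1 changed places. Against CHO-S at stationary phase the values were 1.68 ± 0.14 (edgeR, adjusted p = 9.6e-06) for A0 and 1.44 ± 0.14 (edgeR, adjusted p = 0.00016) for A1, and 1.64 and 1.37 without CHO-S culture 1. At exponential phase A1 exceeded CHO-S by 1.20 ± 0.07 (edgeR, adjusted p = 3.5e-13). The rise was 1.57 ± 0.11 (edgeR, adjusted p = 3.8e-08) in A0 and 0.70 ± 0.07 (edgeR, adjusted p = 5.0e-10) in A1, with an interaction of -0.91 ± 0.15 (edgeR, adjusted p = 0.00046). Syvn1 (gene 100765313) was at 72.9, 87.5 and 73.9 CPM in A1 and 16.5, 42.9 and 37.4 CPM in CHO-S at stationary phase, with all A1 cultures higher, by 1.16 ± 0.27 (edgeR, adjusted p = 0.011). That value was 0.93 without CHO-S culture 1, and the call was lost without A1 culture 2 (edgeR, adjusted p = 0.054).

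Edem1 (gene 100689456), which trims mannose from misfolded glycoproteins, rose between the phases in CHO-S. It was at 67.4, 73.8, 86.7 and 62.2 CPM in A0, 75.3, 82.6 and 76.5 CPM in A1 and 55.7, 56.3 and 51.6 CPM in CHO-S at exponential phase. The stationary cultures had 76.3, 85.9, 77.6 and 78.2 CPM in A0, 86.3, 82.9 and 80.5 CPM in A1 and 103, 109.8 and 108 CPM in CHO-S. CHO-S went from below to above both producers, and culture 1 was close to the other CHO-S stationary cultures. The CHO-S rise was 0.98 ± 0.12 (edgeR, adjusted p = 0.0046), 1.003 without stationary culture 1, and lost without exponential culture 2 or 3 (edgeR, adjusted p of 0.053 and 0.055). A0 had 0.12 and A1 0.11 (edgeR, adjusted p = 0.41 and 0.22), and the interactions against CHO-S were -0.87 ± 0.18 (edgeR, adjusted p = 0.0030) for A0 and -0.88 ± 0.13 (edgeR, adjusted p = 0.0011) for A1 (-0.83 and -0.91 without CHO-S stationary culture 1). At stationary phase A0 was lower than CHO-S, at -0.45 ± 0.13 (edgeR, adjusted p = 0.021), a call lost without A0 culture 1, 3 or 4 or CHO-S culture 2 or 3 (edgeR, adjusted p of 0.057 to 0.13), and -0.44 without CHO-S culture 1. It was -0.40 (edgeR, adjusted p = 0.13) with A0 cultures 1 and 2 alone and -0.49 (edgeR, adjusted p = 0.056) with 3 and 4 alone. Edem2 (gene 100753801), of the same family, was at 132, 142 and 154 CPM in A1 and 54.1, 63.6 and 65.1 CPM in CHO-S at exponential phase, all A1 cultures being higher, with a difference of 1.22 ± 0.07 (edgeR, adjusted p = 1.2e-13). Edem3 rose by 0.33 in A0, with 0.50 for cultures 1 and 2 alone and 0.20 (edgeR, adjusted p = 0.13) for 3 and 4 alone, and by 0.16 in A1. The A1 call was lost without A1 exponential culture 1 or 3 or stationary culture 1 (edgeR, adjusted p of 0.056 to 0.081) and in the fit of 6 groups (0.48).

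Vcp (gene 103161970), the ATPase that pulls clients out of the membrane, was at 305, 276, 303 and 367 CPM in A0 and 529.5, 535 and 549 CPM in A1 at exponential phase, and at 314, 294, 298 and 316 and 352, 389 and 380.2 CPM at stationary phase. A1 lay above A0 at both phases and came down between them. The differences were 0.78 ± 0.10 (edgeR, adjusted p = 4.9e-05) and 0.28 ± 0.07 (edgeR, adjusted p = 0.0038), the second lost in the fit of 6 groups (0.15), and the fall in A1 was -0.51 ± 0.05 (edgeR, adjusted p = 6.6e-09). Os9 (gene 100758962), a lectin that delivers glycoproteins to Sel1l, was at 243, 236, 214 and 219 CPM in A0 and 259.8, 262 and 283 CPM in A1 at stationary phase. All A1 cultures were higher, by 0.23 ± 0.07 (edgeR, adjusted p = 0.024), a call lost without A0 culture 3 or A1 culture 2 or 3 (edgeR, adjusted p of 0.051 to 0.13), with A0 cultures 1 and 2 alone, at 0.15 (edgeR, adjusted p = 0.079), and in the fit of 6 groups (0.077). Derl2 (gene 100755526), a derlin of the membrane channel, was at 41.1, 40.8 and 40.3 CPM in A1 and 20.6, 20.8 and 21.4 CPM in CHO-S at exponential phase, with A1 higher throughout, by 0.95 ± 0.07 (edgeR, adjusted p = 5.0e-11). Derl1 rose in A0 by 0.84, and its interaction of A1 against A0 was -0.72 (edgeR, adjusted p = 0.0029). Selenos, which recruits Vcp, rose by 0.95 in A0 and 0.61 in A1. Ube2j1, the conjugating enzyme, was higher in both producers than in CHO-S at exponential phase (0.32 and 0.66), and its changes between the phases were 0.06 in A0 and -0.09 in A1, neither past the threshold, with 0.24 (edgeR, adjusted p = 0.036) for A0 cultures 1 and 2 alone.

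Genes of the same pathways outside the 40 members were counted alongside. Of 14 other genes of the unfolded protein response, 8 rose in A0 and 0 fell by edgeR (0 at an unadjusted p under 0.05, and 0 by DESeq2), where 17.7% and 20.1% of all genes did, with a median of 0.45. Of 13 tested in A1, 6 rose and 0 fell by edgeR (0 at an unadjusted p under 0.05, and 0 by DESeq2), where 15.6% and 17.8% of all genes did, with a median of 0.30. Of 13 tested in CHO-S, 2 rose (Ddit3 and Creb3l1) and 1 fell (Stc2), where 6.81% and 6.48% of all genes did, with a median of -0.04. Without stationary culture 1 6 rose and 4 fell (23.1% and 24.7% of all genes). The Creb3l1 and Stc2 calls were each lost without any single culture other than stationary culture 1 (edgeR, adjusted p of 0.067 to 0.12 for Creb3l1 and 0.053 to 0.090 for Stc2), and the Ddit3 call without exponential culture 2 (0.056). Ddit3, a factor of the Eif2ak3 branch, was at 26.3, 26, 24.4 and 19.4 CPM in exponential and 375, 368, 308 and 241 CPM in stationary A0 cultures, and at 39.9, 51 and 34.7 and 222, 197 and 209 CPM in A1. In CHO-S it was at 25.3, 23.4 and 26 and 221, 104 and 106 CPM, with culture 1 the highest. Every stationary culture lay above the exponential cultures of its line, and the rise was 3.74 ± 0.15 (edgeR, adjusted p = 1.3e-10) in A0 and 2.34 ± 0.09 (edgeR, adjusted p = 7.9e-19) in A1, with an interaction of -1.44 ± 0.20 (edgeR, adjusted p = 0.00010). Trib3, a pseudokinase induced by Ddit3, was at 12.9, 14.2, 11.7 and 14.4 CPM and 226, 215, 165 and 160.1 CPM in A0 and at 35.7, 45.6 and 42.9 and 215, 192 and 189 CPM in A1. The rise was 3.84 in A0 and 2.28 in A1, and the interaction was -1.60 ± 0.17 (edgeR, adjusted p = 4.3e-06). Atf4, the factor translated when Eif2ak3 is active, rose by 1.30 in A0 and 1.17 in A1, with an interaction of -0.17 (edgeR, adjusted p = 0.71) and of -0.49 (edgeR, adjusted p = 0.026) with A0 cultures 3 and 4 alone, and Chac1 by 2.86 and 2.52. Ppp1r15a, which restores translation, rose by 1.30 in A0 and 0.30 in A1, with an interaction of -1.04 ± 0.24 (edgeR, adjusted p = 0.0076). It was at 173, 151, 82.8 and 92.2 CPM in the stationary A0 cultures. With cultures 1 and 2 alone the rise was 1.73 and the interaction -1.47, and with 3 and 4 alone they were 0.76 and -0.47, each past the threshold. The A1 call was lost in the fit of 6 groups (edgeR, adjusted p = 0.47). In CHO-S, Atf4 was at 224, 252 and 241 CPM at exponential and 249.8, 211 and 232 CPM at stationary phase, and Ppp1r15a at 39.1, 38.8 and 39.5 and 11.4, 39.4 and 34.1 CPM. The exponential and stationary cultures overlapped for both. The changes were -0.05 for Atf4 and -0.30 for Ppp1r15a (edgeR, adjusted p = 0.84 and 0.53), and -0.12 (edgeR, adjusted p = 0.042) and -0.07 (edgeR, adjusted p = 0.52) without stationary culture 1. The interaction of A0 against CHO-S was 1.35 ± 0.25 (edgeR, adjusted p = 0.0014) for Atf4 and 1.56 ± 0.35 (edgeR, adjusted p = 0.0058) for Ppp1r15a, the latter 1.02 (edgeR, adjusted p = 0.13) with A0 cultures 3 and 4 alone. Without CHO-S stationary culture 1 they were 1.46 and 1.43.

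Other folding and ERAD genes were counted in the same way. Of 22 other ER folding genes, 10 rose and 6 fell in A0 between the phases, where 17.7% and 20.1% of all genes did (median 0.08). In A1 against A0, 3 were higher and 10 lower at exponential phase (12% and 13.8% of all genes; median -0.23), and 3 and 13 at stationary phase (16% and 17.7%; median -0.38). More of this list was thus lower than higher in A1 at both phases, whereas more of the 40 members were higher at exponential phase. Erp44, which retrieves proteins to the ER, and Tmx3 fell in A0, at -1.15 ± 0.10 (edgeR, adjusted p = 1.8e-07) and -1.21 ± 0.10 (edgeR, adjusted p = 2.2e-07), while Ganab, a glucosidase subunit, and Fkbp11 rose by 0.70 ± 0.12 (edgeR, adjusted p = 0.00013) and 0.78 ± 0.10 (edgeR, adjusted p = 1.1e-05). Of 19 other ERAD genes tested, 5 rose and 4 fell in A0, where 17.7% and 20.1% of all genes did (median 0.06). Between the producers 3 were higher and 5 lower in A1 at exponential phase (12% and 13.8% of all genes), and 2 and 8 at stationary phase (16% and 17.7%). Hm13, a peptidase that cuts signal peptides, and Erlec1, a lectin, were higher in A1 at both phases (Hm13 0.74 and 0.59, Erlec1 0.86 and 0.62), and Ubxn8 was lower (-0.90 and -0.71). These genes were named after their values were seen. Stc2 had at most 2 counts in any A0 or A1 culture and 15 to 379 in CHO-S. Man1b1 was not among the genes tested.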

How the data were processed

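RNA-seq of stranded mRNA libraries was used from 24 libraries of 20 cultures of 3 CHO lines at 2 growth phases. The authors aligned the reads with STAR 2.5.4b to the genome C_griseus_v1.0 and counted them per gene with HTSeq 0.7.2, and the deposited values are raw counts for each library. Libraries of the same A0 exponential culture were summed. Genes were kept in a comparison if at least 2 of its cultures had at least 1 count and the counts were not all equal. Each of 9 comparisons of 2 groups, and each of 3 interactions of line and phase over 4 groups, was fitted alone on the genes of the whole table that passed this filter with edgeR 4.0.16 in R 4.3.3 (TMM normalization, quasi-likelihood F-test, 2-sided), and p-values were adjusted by the Benjamini-Hochberg method over all genes tested, with a threshold of 0.05. Standard errors are the log2 fold change divided by the square root of F. Sums, counts and figures were made with Python 3.11.15, pandas 2.3.3, numpy 2.4.6 and matplotlib 3.10.9. The fits were tested on simulated data with known fold changes.

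The 40 members and the lists of other genes were chosen with earlier results of these data known. Values in every culture are given for Hspa5, Hsp90b1, Xbp1, Herpud1, Sdf2l1, Dnajb9, Creld2, Manf, Edem1 and Ero1a, and, in each of the 9 comparisons of 2 groups, for up to 3 members with the largest rise and up to 3 with the largest fall among those past the threshold with a mean of at least 1 CPM. Other genes were named after their values were seen. Alternatives were DESeq2 1.42.0, its size factors in edgeR, no gene filter, the filter of edgeR (filterByExpr), a fit of all 6 groups, a block for the culture number, the A0 cultures 1 and 2 or 3 and 4 alone, the first A0 libraries alone, and each culture left out in turn. The libraries held 1038026 to 14652646 counts on genes. In A0, residuals of the same culture number at both phases correlated at 0.19 to 0.403. Those of cultures 1 with 2 and 3 with 4 correlated at 0.173 to 0.3 and those between these sets at -0.366 to -0.139, so that same numbers and same sets are not told apart. The block left the count of members past the threshold between the A0 phases at 31. No genome or sequence tables were at hand, so promoters and proteins were not described.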

Additional observations from a re-analysis of the deposited data

Results flagged for a closer look

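In 3 of 80 sets of 4 A0 cultures (40 members at 2 phases), the gap from 1 culture to the nearest was a large share of the range of the set by Dixon's test, where chance gives about 1 in 20, or 4. The share was 0.9 for Pdia6 in exponential culture 3 (768, 767, 776 and 767 CPM in the set, values close to each other), 0.899 for Dnajc10 in exponential culture 4 (205, 215, 213 and 303 CPM) and 0.865 for Atf6 in exponential culture 3 (114, 117, 139 and 113 CPM).

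The change between the phases differed between A1 and A0 in 18 members, each by a test of the interaction in edgeR, and all 18 values were negative, a smaller rise or a larger fall in A1. Among chaperones they were Hspa5 (-1.733), Hsp90b1 (-0.87), Hyou1 (-1.024), Sdf2l1 (-0.692), Calr (-0.535) and Canx (-0.404). Among isomerases they were Pdia3 (-0.458), Pdia4 (-1.04), Pdia5 (-0.81), Pdia6 (-0.611) and Ppib (-0.46). The sensors Ern1 (-0.73) and Atf6 (-0.619) and the ERAD members Edem2 (-0.659), Sel1l (-0.907), Derl1 (-0.719), Herpud1 (-1.002) and Vcp (-0.498) complete the list. With 1 culture left out, edgeR gave an adjusted p-value of 0.056 for Sdf2l1 without A1 stationary culture 2, 0.052 for Pdia3 without A1 exponential culture 2, and 0.053 to 0.077 for Calr without A1 exponential culture 2 or stationary culture 1 or 2. Canx lost the threshold without any single A1 culture, A0 exponential culture 2 or A0 stationary culture 1 or 2 (0.061 to 0.17 in edgeR), and Ppib without these or A0 exponential culture 3 (0.060 to 0.13 in edgeR). With A0 cultures 3 and 4 alone, Sdf2l1 (0.079) and Canx (0.20) lost the threshold, with no gene filter Canx (0.061), and with all 6 groups in 1 fit Calr, Canx, Pdia3, Ppib, Edem2 and Vcp (0.18 to 0.41).

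The change differed between A0 and CHO-S in 11 members by the same test. The interaction was positive, a larger rise or smaller fall in A0, for Hspa5 (1.362), Hyou1 (0.9), Pdia4 (0.785), Ern1 (1.082), Atf6 (0.873), Sel1l (1.123), Derl1 (0.73) and Vcp (0.781). It was negative, a larger rise in CHO-S, for Sil1 (-0.872), Ero1a (-0.951) and Edem1 (-0.871). Mean Vcp went from 312.89 to 305.27 CPM in A0 and from 424.81 to 232.62 CPM in CHO-S (275.65 CPM without stationary culture 1). Without CHO-S stationary culture 1, 16 members passed, these 11 among them, with 1.38 for Hspa5, 0.84 for Hyou1, 0.89 for Pdia4, 0.99 for Ern1, 0.90 for Atf6, 1.12 for Sel1l, 0.79 for Derl1, 0.62 for Vcp, -0.69 for Sil1, -0.92 for Ero1a and -0.83 for Edem1. Derl1 had an adjusted p-value of 0.052 from edgeR without CHO-S exponential culture 2 and Pdia4 of 0.051 without CHO-S exponential culture 1. Vcp lost the threshold without any single CHO-S exponential culture, A0 exponential culture 1, 2 or 3 or A0 stationary culture 1, 3 or 4 (0.065 to 0.10 in edgeR). With A0 cultures 3 and 4 alone, Hyou1 (0.14), Sil1 (0.11), Pdia4 (0.20), Ern1 (0.068), Derl1 (0.077) and Vcp (0.26) lost it, and with 1 and 2 alone Vcp (0.089).

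It differed between A1 and CHO-S in 5 members, all larger in CHO-S: Sil1 (-1.194), Manf (-0.609), Pdia6 (-0.458), Ero1a (-1.214) and Edem1 (-0.881). Manf lost the threshold without any single exponential culture, A1 stationary culture 1 or 2 or CHO-S stationary culture 2 (adjusted p of 0.051 to 0.096 in edgeR), and Pdia6 without these or CHO-S stationary culture 3 (0.063 to 0.13 in edgeR). Both lost it in the fit of 6 groups (0.051 and 0.063). In all, 19 members passed without CHO-S stationary culture 1, these 5 among them, with -1.12 for Sil1, -0.53 for Manf, -0.53 for Pdia6, -1.26 for Ero1a and -0.91 for Edem1. No explanation was tested for any of these values.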

How the results depend on the processing

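Of 104 values of named members past the threshold, 72 kept their direction and their side of it under every alternative run. These 104 values had 1543 alternative fits, of which 1425 kept both, 118 lost the threshold and 0 reversed. The other 52 named values had 876 alternative fits, of which 54 passed the threshold. The counts of members past the threshold moved by at most 1.5 times for A1 against A0 and both producers against CHO-S at exponential phase and for A0 between the phases, under every alternative run. For A1 against A0 at stationary phase the count of 22 was 14 when all 6 groups were fitted together. For A0 against CHO-S at stationary phase the count of 26 was 17 with A0 cultures 1 and 2 alone and 11 with 3 and 4 alone, fits with fewer cultures. For A1 against CHO-S at stationary phase the count of 18 ranged from 7 to 33 with 1 culture left out, lowest without A1 culture 2 and highest without CHO-S culture 1. For A1 between the phases the count of 25 was 10 in the fit of 6 groups. For CHO-S between the phases the count of 10 was 16 with DESeq2, 20 in the fit of 6 groups and 5 with a replicate block, and ranged from 0 to 31 with 1 culture left out, lowest without exponential culture 2 and highest without stationary culture 1. The interaction of A1 against A0 went from 18 to 30 with A0 cultures 1 and 2 alone, and that of A0 against CHO-S from 11 to 5 with 3 and 4 alone. The interaction of A1 against CHO-S went from 5 to 3 with a replicate block, and ranged from 3 to 19 with 1 culture left out, highest without CHO-S stationary culture 1. With the block, calls lost at stationary phase included those of Pdia3 (0.14) and Os9 (0.064) in A1 against A0, Sdf2l1 (0.086), Manf (0.12) and Edem1 (0.19) in A0 against CHO-S, and Hspa5 (0.082), Herpud1 (0.086) and Xbp1 (0.12) in A1 against CHO-S, and between the CHO-S phases Manf (0.054), Pdia4 (0.068), Hsp90b1 (0.084) and Ero1b (0.15), all adjusted p from edgeR. Same-numbered A1 cultures had residual correlations of -0.117 to 0.11 across the phases and CHO-S cultures -0.006 to 0.067. The cause of these moves was not tested. CHO-S stationary culture 1, with 1038026 counts and 32.8% of its reads on no annotated gene, limits what the comparisons with that group can resolve.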
